A study of Mus musculus with 39 samples.

Results

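The RNA of 9 transcription factors known for setting or marking the brown adipocyte lineage was examined: Prdm16, Ebf2, Ebf3, Zfp516, Lhx8, Zic1, Tbx15, Irf4 and Cebpa. They were chosen by gene symbol, out of 24116 gene entries, and all 9 were above 0 in each of 16 libraries. All 9 also passed the filter on low values, which kept 13176 genes. Every mouse was a male of the C57BL/6J background with floxed Bcl6 alleles, that is, alleles flanked by sites for the recombinase Cre. The samples were interscapular brown fat, the heat-producing depot between the shoulder blades, and the sources used here do not give ages. There were 4 groups of 4 RNA libraries: Cre-negative mice (controls) kept at 22 °C, UCP1Cre mice at 22 °C, controls at 30 °C and UCP1Cre mice at 30 °C, all on standard chow. UCP1Cre is Cre driven by the Ucp1 promoter, which is active in brown adipocytes, so the other cells of the depot are not targeted. Whether libraries of one group are different animals is not said in the labels, so p-values measure only the spread between these libraries.

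Brown adipocytes burn fat to make heat through the uncoupling protein UCP1, and they share developmental origins with skeletal muscle. PRDM16 is a zinc-finger coregulator that favours brown over muscle and white fat genes, acting with DNA-binding factors such as C/EBPs and EBF2. EBF2 marks brown preadipocytes and helps PPARγ reach brown fat genes, while IRF4 and ZFP516 respond to cold and take part in the thermogenic program. LHX8, ZIC1 and TBX15 are known mainly as markers of the classical brown depot, and C/EBPα is needed for the differentiation of fat cells in general. BCL6 is a transcriptional repressor.

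Of the brown fat markers looked up, Ucp1 lay between 3761 and 119740 normalised counts and Cidea between 13232 and 56986 over the 16 libraries. Cox8b lay between 4076 and 15850 and Cox7a1 between 1804 and 7047. Elovl3 ran from 0.678 to 1718 with a median of 21.5, so not every brown fat marker was high in every library. Adipoq, a gene of fat cells in general, lay between 12655 and 22263. The values are the authors' normalised counts, scaled between libraries, so depth in reads is unknown and no counting interval is given. Library totals ran from 8867615 to 13516936 normalised counts and were lower at 30 °C than at 22 °C. Between 14311 and 16849 genes per library were above 0, fewest in control 22 °C library 1. Bcl6 RNA was above the controls in every library labelled as carrying Cre, at 3269 to 5159 against 1020 to 2340 normalised counts at 30 °C. At 22 °C it lay at 2671 to 3927 against 764 to 1838. Whether the deleted part of Bcl6 is missing was not checked, so these libraries are called Cre-labelled, and each direction below rests on that label.

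**Figure D1:**
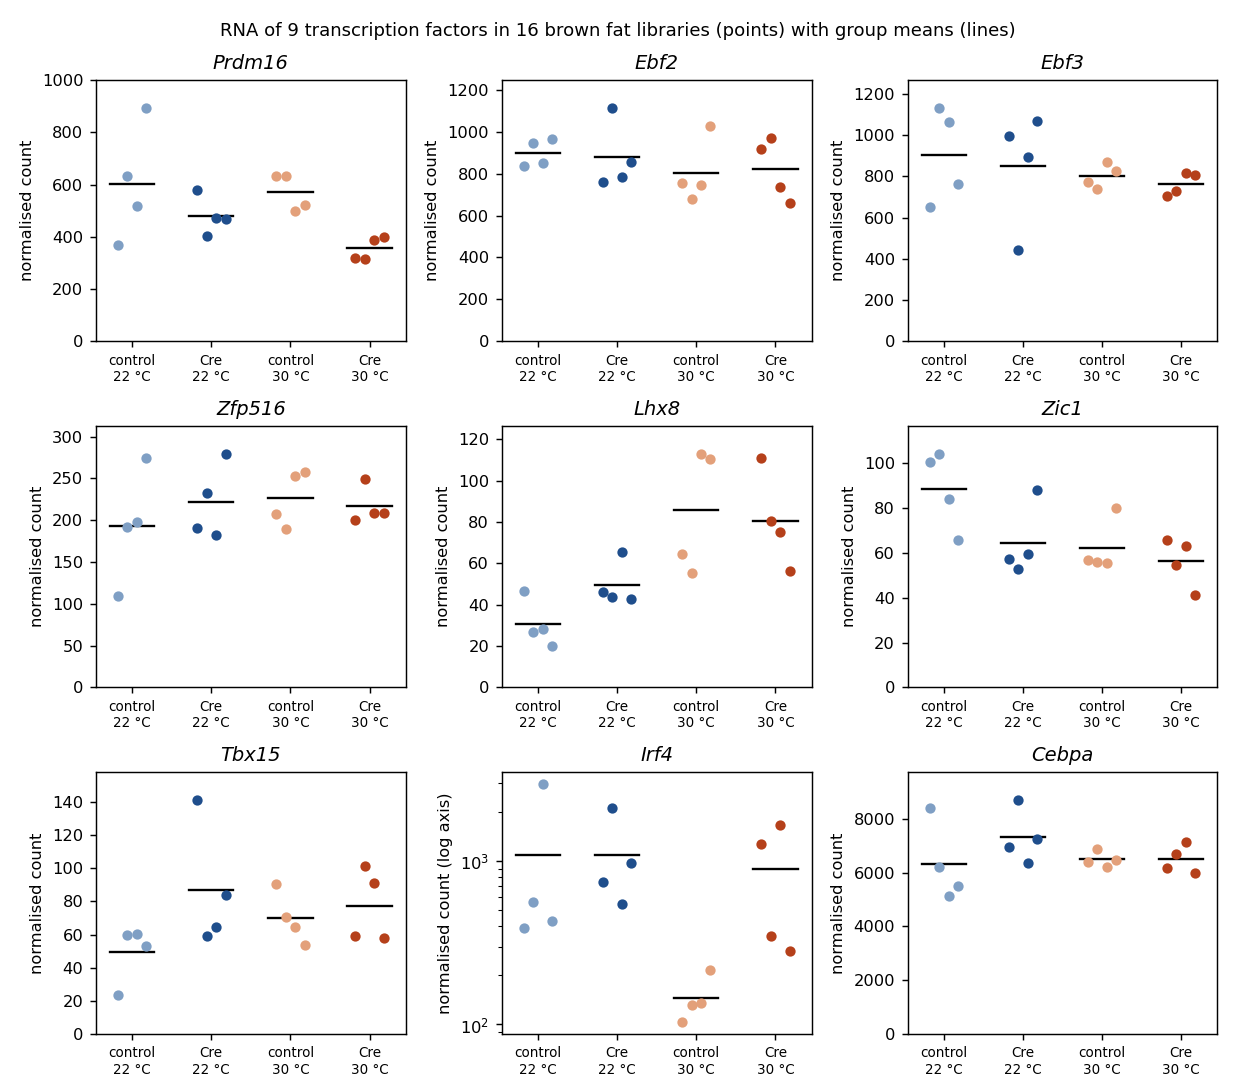
Normalised counts of the 9 genes (vertical axes, linear from 0 except a log axis for Irf4) in the 16 libraries (points), by group, with group means (lines). Prdm16 was lowest in the Cre-labelled group at 30 °C (316 to 401), Irf4 was lowest in the controls at 30 °C (104 to 215), and Cebpa and Ebf2 stayed within a 1.69-fold range.

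Of the 9 genes, 2 differed with the Cre label at 30 °C: Prdm16 fell and Irf4 rose. Another pair of differences came with temperature in the controls, where Lhx8 was higher and Irf4 lower at 30 °C. None of the 9 passed the test for the Cre label at 22 °C or for temperature within Cre-labelled libraries. The other six genes, Ebf2, Ebf3, Zfp516, Zic1, Tbx15 and Cebpa, passed no test. A difference was called where limma's p on log2(value + 1), adjusted over all genes by Benjamini-Hochberg, was under 0.05. By that rule 12.5% of all genes tested were called for the Cre label at 30 °C, 6.85% lower and 5.65% higher, beside 2 of the 9. For the Cre label at 22 °C 10.2% of all genes were called, 5.51% higher and 4.69% lower, beside 0 of the 9. Temperature called 45.5% of all genes in controls, 22.9% higher and 22.7% lower at 30 °C, beside 2 of the 9. In Cre-labelled libraries it called 32.7%, 15.0% higher and 17.7% lower, beside 0 of the 9. The interaction called 0.440%, 0.175% with a positive sign and 0.266% with a negative one, beside 0 of the 9. No member had an unadjusted p under 0.05 there, against 10.5% of all genes. At an unadjusted p under 0.05 the counts were 2, 3, 3 and 2 of the 9 in the 4 comparisons of groups, in the order above, against 25.8%, 25.5%, 53.3% and 42.8% of all genes. The median log2 difference of the 9 genes was -0.06 for the Cre label at 30 °C, where the median of all genes was 0.01. It was 0.23 at 22 °C (all genes -0.00), -0.01 for temperature in controls (all genes 0.04) and -0.13 in Cre-labelled libraries (all genes 0.02). Scaled to the same total these 4 medians were 0.01, 0.40, 0.38 and 0.16, that is, 3 of them changed sign, as the median of all genes moved upward by 0.07, 0.17, 0.39 and 0.29.

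**Figure D2:**
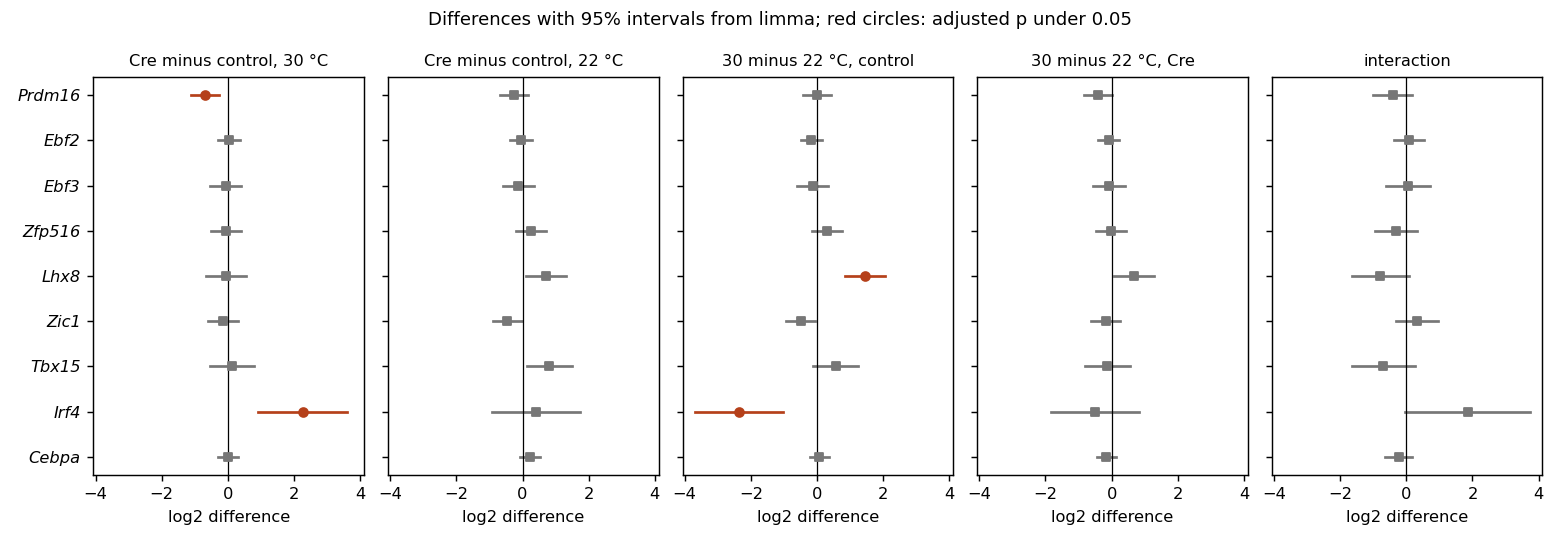
Log2 differences of the 9 genes (horizontal axes) in the 5 comparisons with their 95% intervals from limma; circles in red passed the threshold. The intervals of Prdm16 (-1.11 to -0.26) and Irf4 (0.92 to 3.59) for the Cre label at 30 °C and of Lhx8 and Irf4 for temperature in controls lie away from 0, and none of the 9 was called for the interaction.

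Prdm16 (Entrez 70673, chr4 154316122-154637360, minus strand, GRCm38.p6) encodes the coregulator that lies at the centre of brown fat identity. In the controls at 30 °C it measured 632.1, 632.7, 499 and 523 normalised counts, and in Cre-labelled libraries at 30 °C 318, 316, 389 and 401. The groups did not overlap: the highest Cre-labelled library was below the lowest control. The means were 572 ± 70.8 and 356 ± 45.2 (SD, n = 4 each), so Prdm16 was 1.60-fold lower on the fitted scale. Its log2 difference was -0.68 (SE 0.20) with a limma adjusted p of 0.0336. The two-sided exact permutation test gave p = 0.0286, the smallest that 4 against 4 libraries allow. Groups that did not overlap at 30 °C were found for 2 of the 9 genes and for 22.9% of all genes tested. The call lay near the threshold. Leaving out control library 1, 2 or 4 or Cre-labelled library 1, 2 or 3 at 30 °C moved limma's adjusted p to between 0.0511 and 0.0966. The log2 difference stayed between -0.74 and -0.63 over all libraries left out. Scaling each library to the same total gave -0.61 (limma adjusted p = 0.0959). All 30 alternatives kept the direction, with adjusted p from limma between 0.00492 and 0.497.

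At 22 °C Prdm16 was more spread, with 370, 633, 516 and 894 normalised counts in the controls and 580, 402, 470 and 467 in Cre-labelled libraries. The control group spanned the whole Cre-labelled group. The log2 difference was -0.27 (95% interval -0.69 to 0.16, limma adjusted p = 0.436), on means of 603 ± 222 and 480 ± 73.6 (SD, n = 4 each). The difference between the Cre effects at the 2 temperatures was not past the threshold either (interaction -0.41, SE 0.28, limma adjusted p = 0.676). Temperature left the controls at nearly the same level (log2 difference -0.01, limma adjusted p = 0.964). In the Cre-labelled libraries Prdm16 was at 480 at 22 °C and 356 at 30 °C, and the groups met almost edge to edge, at 402 and 401. That difference of -0.43 had a limma adjusted p of 0.116 and an exact permutation p of 0.0286, with 1 of the 9 genes not overlapping here against 34.5% of all genes. It was called in a fit of those groups alone (limma adjusted p = 0.0388), without the sparsest pair of libraries (-0.51, limma adjusted p = 0.0287) and without control 22 °C library 1 (limma adjusted p = 0.0454). From high to low, the group means were control 22 °C, control 30 °C, Cre-labelled 22 °C and Cre-labelled 30 °C. The first 3 overlapped one another, and the last 2 did not overlap.

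Irf4 (Entrez 16364, chr13 30749233-30766981, plus strand) encodes an interferon regulatory factor that is induced by cold and cAMP in brown fat and partners PGC-1α. It is also expressed in lymphocytes and macrophages. It was the most variable of the 9 genes, with a 28.5-fold span between its lowest and highest library and an SD of log2 values (1.46) above that of 97.8% of genes kept. The controls at 30 °C measured 104, 131, 134 and 215 normalised counts. The Cre-labelled libraries at 30 °C measured 1270.5, 349, 1665 and 282, so libraries 1 and 3 were several times above libraries 2 and 4. All 4 were above every control. The means were 892 ± 685 and 146 ± 47.7 (SD, n = 4 each), a 6.10-fold ratio of means. The log2 difference was 2.25 (SE 0.63, limma adjusted p = 0.0264, exact permutation p = 0.0286). Without Cre-labelled libraries 1 and 3, a choice made after seeing the data, the log2 difference was 1.15 (limma adjusted p = 0.423). Over its 30 alternatives 22 kept the call, with adjusted p from limma between 0.00820 and 0.423, and over single libraries left out the log2 difference ran from 1.82 to 2.67. Leaving out control library 1, 2 or 3 or Cre-labelled library 1 or 3 at 30 °C took the adjusted p from limma to between 0.0553 and 0.0913.

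At 22 °C the controls measured 388, 560, 2962 and 433 normalised counts of Irf4, and the Cre-labelled libraries 745, 2124, 550 and 967. One library in each of these groups, control library 3 and Cre-labelled library 2, stood well above the rest, and the groups overlapped. The log2 difference with the Cre label was 0.40 (95% interval -0.94 to 1.73, limma adjusted p = 0.740), on means of 1097 ± 706 and 1086 ± 1253 (SD, n = 4 each). In the controls all 4 libraries at 30 °C were below all 4 at 22 °C. Groups that did not overlap for temperature in controls were found for 2 of the 9 genes, Irf4 and Lhx8, and for 41.2% of all genes. The log2 difference of Irf4 was -2.36 (SE 0.63, limma adjusted p = 0.00644, exact permutation p = 0.0286), or 5.13-fold. The ratio of means was 7.43-fold, with the 2962 of control 22 °C library 3 in the higher mean. Without control 22 °C library 3 the log2 difference was -1.68 (limma adjusted p = 0.0225). In the Cre-labelled libraries the difference with temperature was -0.50 (95% interval -1.84 to 0.83, limma adjusted p = 0.579). The interaction for Irf4 was 1.86 (SE 0.89, 95% interval -0.03 to 3.74, limma adjusted p = 0.485), so the Cre effects at 30 and 22 °C were not shown to differ. The group means ran from Cre-labelled 22 °C through control 22 °C and Cre-labelled 30 °C to control 30 °C, and only the last of these neighbours did not overlap.

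Lhx8 (Entrez 16875, chr3 154306288-154330560, minus strand) encodes a LIM homeobox factor used as a brown fat marker. The controls measured 46.4, 27.1, 28.4 and 20.3 normalised counts at 22 °C and 64.4, 55.2, 113 and 110 at 30 °C. Every library at 30 °C was above every library at 22 °C. The means were 30.5 ± 11.2 and 85.7 ± 30.1 (SD, n = 4 each), a 2.81-fold ratio. The log2 difference was 1.45 (SE 0.28), with a limma adjusted p of 7.03e-04 and an exact permutation p of 0.0286. It was called in 29 of 30 alternatives. The Cre-labelled libraries measured 46.0, 43.8, 65.4 and 43.0 at 22 °C and 111, 80.3, 75.2 and 56.3 at 30 °C. These overlapped in 1 library on each side, with a log2 difference of 0.67 (limma adjusted p = 0.0801, exact permutation p = 0.0571). At the same total it was 0.96 (limma adjusted p = 0.0184), and it was also called in a fit of those groups alone and without Cre-labelled 22 °C library 3 or 30 °C library 4 (limma adjusted p of 0.0470 to 0.0496). With the Cre label Lhx8 differed by 0.72 at 22 °C (95% interval 0.12 to 1.32, limma adjusted p = 0.118; 0.94 and 0.0407 without control 22 °C library 1) and by -0.06 at 30 °C (95% interval -0.66 to 0.54, limma adjusted p = 0.930). Neighbouring groups overlapped throughout the order control 30 °C, Cre-labelled 30 °C, Cre-labelled 22 °C and control 22 °C.

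The 150 bases before the annotated starts of Irf4 and Lhx8 are shown because these were the members that passed the test for temperature, in opposite directions. They are from RefSeq on GRCm38.p6, written 5′ to 3′ on the gene's strand, with CG dinucleotides, the sites of DNA methylation in mammals, in capitals.
Irf4, chr13:30749083-30749232, plus strand: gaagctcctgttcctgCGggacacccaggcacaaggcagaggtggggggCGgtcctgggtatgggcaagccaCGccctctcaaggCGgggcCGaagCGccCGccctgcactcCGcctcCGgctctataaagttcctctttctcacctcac
Lhx8, chr3:154330561-154330710, minus strand: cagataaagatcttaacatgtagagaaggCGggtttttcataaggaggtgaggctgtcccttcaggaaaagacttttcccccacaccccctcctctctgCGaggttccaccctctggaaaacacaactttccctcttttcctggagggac
The Irf4 stretch held 9 CG dinucleotides and was 66.0% G or C, and 68.3% of 32851 mouse promoters had fewer CG over the same length. The Lhx8 stretch held 2 CG dinucleotides and was 50.0% G or C, and 29.3% of promoters had fewer. The median promoter held 4. Windows of 300 bases, 250 before and 50 after the start, were matched for 6 of the 9 genes and searched on both strands for 4 motifs. TTCCTNGAA, a core of the BCL6 site and a subset of the STAT core TTCNNNGAA, was in 0 of these 6 windows and in 1.6% of all promoters. TTCNNNGAA was in 0 of 6 and 8.3%. CCCNNGGG, the core of the EBF site, was in 1 of 6 and 13.7%, the match being CCCGGGGG, in the window chr7:137314396-137314695 with its first base at position -21. That window belongs to a start inside the Ebf3 span, not at its upper edge. TTGCNNAA, a C/EBP core, was in 0 of 6 and 10.8%. A window without a match says only that these letters are not in it.

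Ebf2 (Entrez 13592, chr14 67233292-67430952) and its paralog Ebf3 (Entrez 13593, chr7 137193671-137322805, minus strand) encode early B-cell factors, DNA-binding proteins of preadipocytes. Ebf2 measured 838, 946, 849 and 966 normalised counts in the controls at 22 °C and 759, 1115, 784 and 855 in Cre-labelled libraries. At 30 °C it measured 757, 680.5, 747 and 1026 in the controls and 917, 971, 739 and 661 with the Cre label. All 4 groups overlapped. The SD of its log2 values over the 16 libraries was 0.22, above that of 18.3% of genes kept. For the Cre label the log2 difference of Ebf2 was 0.03 at 30 °C (95% interval -0.29 to 0.36) and -0.05 at 22 °C (95% interval -0.37 to 0.27). Ebf3 measured 650, 1133, 1063 and 763 in the controls and 995, 444, 895 and 1070 in Cre-labelled libraries at 22 °C. At 30 °C it ran from 739 to 869 in the controls and from 706 to 815 in Cre-labelled libraries, so its spread was wider at 22 °C in both labels. Its differences in the 4 comparisons lay between -0.14 and -0.07 on the log2 scale, with limma adjusted p values of 0.641 to 0.891. Without the sparsest pair of libraries, library 1 of the controls and library 2 of the Cre-labelled group at 22 °C, the difference with temperature in Cre-labelled libraries was -0.37 (limma adjusted p = 0.0317).

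Zfp516 (Entrez 329003, chr18 82909688-83005314) encodes a zinc-finger activator of Ucp1. It measured 109.6, 191, 198 and 275 normalised counts in the controls and 191, 233, 183 and 279 in Cre-labelled libraries at 22 °C. At 30 °C the controls ran from 189 to 258 and the Cre-labelled libraries from 200 to 249. The groups overlapped in every comparison. Among the 4 comparisons of groups its largest log2 difference was 0.29, for temperature in controls (95% interval -0.16 to 0.75, limma adjusted p = 0.282). Scaled to the same total it was 0.68 (limma adjusted p = 0.0200), while that scaling raised the median of all genes by 0.39 in the same comparison.

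Zic1 (Entrez 22771, chr9 91358058-91365768, minus strand) encodes a zinc-finger factor of the classical brown depot. It measured 101, 104, 83.9 and 65.6 normalised counts in the controls at 22 °C and 56.7, 56.0, 55.6 and 80.2 at 30 °C. Cre-labelled libraries measured 57.2, 52.7, 59.7 and 88.0 at 22 °C and 65.8, 54.8, 63.1 and 41.4 at 30 °C. The controls at 22 °C thus held the highest mean, 88.6 ± 17.7, and the other 3 groups lay at 56.3 to 64.4, all overlapping it. For temperature in controls the log2 difference was -0.50 (95% interval -0.95 to -0.06, limma adjusted p = 0.0620, exact permutation p = 0.0571). It was called after quantile normalization (-0.83, limma adjusted p = 0.00429). It was also called without control 22 °C library 4 (-0.64, limma adjusted p = 0.0278), without control 30 °C library 4, which stood apart (-0.63, limma adjusted p = 0.0341), and without Cre-labelled 22 °C library 4 (limma adjusted p = 0.0487). For the Cre label at 22 °C it was -0.46 (limma adjusted p = 0.182, exact permutation p = 0.0857).

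Tbx15 (Entrez 21384, chr3 99240348-99354260) encodes a T-box factor found in brown fat and in some muscle. It measured 23.7, 59.6, 60.2 and 53.4 normalised counts in the controls and 141, 58.9, 64.8 and 83.8 in Cre-labelled libraries at 22 °C. The lowest control library and the highest Cre-labelled library stood apart, and the other libraries of the 2 groups ran from 53.4 to 83.8. Skeletal muscle markers (20 genes) summed to 42308, 1425, 2209 and 21190 normalised counts in these Cre-labelled libraries, ranked as Tbx15 was. In the controls they summed to 1756, 1448, 6248 and 2436, not ranked as Tbx15 was. The log2 difference of Tbx15 with the Cre label at 22 °C was 0.81 (95% interval 0.15 to 1.48, limma adjusted p = 0.112, exact permutation p = 0.0857). At 30 °C the controls ran from 53.8 to 90.5 and the Cre-labelled libraries from 57.8 to 101, a log2 difference of 0.13 (95% interval -0.54 to 0.79). For temperature in controls the log2 difference was 0.56 (limma adjusted p = 0.159), and at the same total 0.95 (limma adjusted p = 0.0232).

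Cebpa (Entrez 12606, chr7 35119293-35121928, plus strand) encodes C/EBPα, a factor that fat cells of every kind need to differentiate. It measured 8391, 6217, 5147 and 5501 normalised counts in the controls and 6951, 8698, 6352 and 7249 in Cre-labelled libraries at 22 °C. At 30 °C the groups nearly coincided, at 6195 to 6885 in the controls and 5971 to 7136 with the Cre label. The means there were 6492 ± 289 and 6493 ± 520 (SD, n = 4 each), and the 95% interval of the log2 difference was -0.30 to 0.29. At 22 °C the log2 difference with the Cre label was 0.23 (limma adjusted p = 0.323). Scaled to the same total that difference was 0.40 (limma adjusted p = 0.0293) and after quantile normalization 0.42 (limma adjusted p = 0.00842). Without control 22 °C library 1 it was 0.37 (limma adjusted p = 0.0472).

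**Figure D3:**
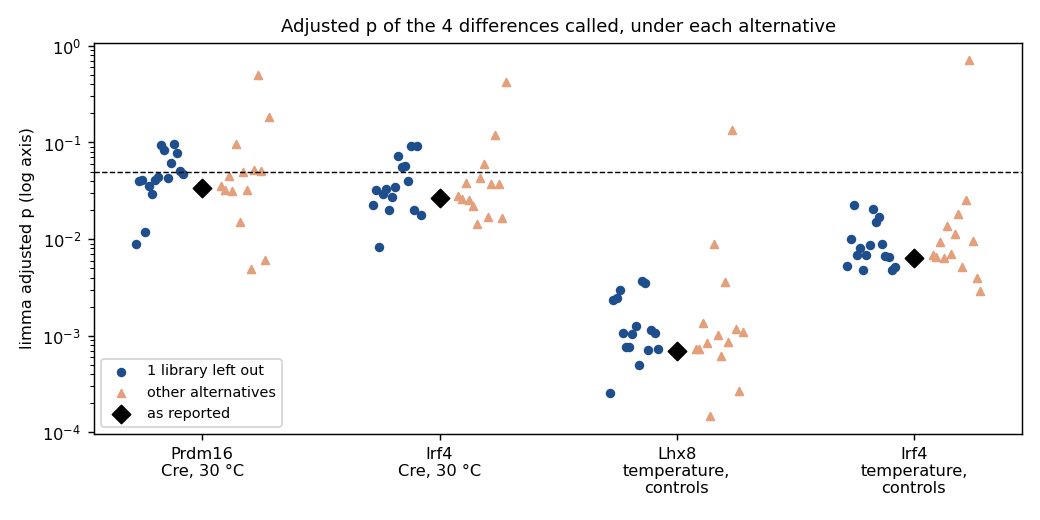
Adjusted p from limma (vertical log axis) of the 4 differences called, as reported (diamonds), with 1 library left out (circles) and under the other alternatives (triangles); the dashed line is the threshold of 0.05. The call of Prdm16 for the Cre label at 30 °C was lost in 11 of 30 alternatives and that of Irf4 in 8 of 30, while Lhx8 and Irf4 for temperature in controls each kept it in 29 of 30.

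Since whole tissue was sequenced, fewer cells of a type and less RNA per cell cannot be told apart. Macrophage markers moved with the groups: 13 of 16 were called higher and none lower with the Cre label at 30 °C, with a median log2 difference of 1.05. At 22 °C 8 were higher and 1 lower with the Cre label, the lower one being Cd14 (-1.18). Their summed level ran from 1459 to 2432 normalised counts in the controls and from 2492 to 3528 in Cre-labelled libraries at 22 °C. At 30 °C it ran from 4089 to 5136 in the controls and from 7021 to 18461 with the Cre label, and no macrophage marker was at 0 in any library. These 4 ranges do not overlap, so macrophage content and group cannot be told apart here. With the macrophage score as a covariate, Prdm16 for the Cre label at 30 °C was at -0.46 (limma adjusted p = 0.497) and Irf4 at 3.48 (limma adjusted p = 0.120). For temperature in controls with the same covariate, Lhx8 was at 1.39 (limma adjusted p = 0.135) and Irf4 at -0.78 (limma adjusted p = 0.706). For Lhx8 and Irf4 in controls these were the highest adjusted p values of all 30 alternatives, and the lowest from limma were 1.47e-04 and 0.00289.

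Within the Cre-labelled group at 30 °C, Irf4 and the macrophage marker sum were not ordered alike. Libraries 1 to 4 held 1270.5, 349, 1665 and 282 normalised counts of Irf4 beside macrophage marker sums of 15253, 9982, 7021 and 18461. The library with the highest Irf4 had the lowest macrophage sum, and the library with the lowest Irf4 had the highest. At 22 °C Cre-labelled library 2, with the highest Irf4 of its group (2124), had the highest macrophage sum (3528). Control library 3, with the highest Irf4 of its group (2962), had the lowest (1459). These orders are of 4 libraries each and were not tested, so they do not decide the part of macrophages in the Irf4 result. Lymphocyte and plasma cell markers summed to 516, 343, 478 and 813 in Cre-labelled libraries 1 to 4 at 30 °C, and to 203 to 317 in the controls at 30 °C. The score of that list, the mean centred log2 value, was 0.97, 0.39, 0.97 and 0.69 in libraries 1 to 4, so libraries 1 and 3, the pair with the highest Irf4, also held its highest scores. In the controls at 30 °C the score ran from -0.15 to 0.40. At 22 °C the library with the highest Irf4 had the lowest score of its group in both labels. These were control library 3 (Irf4 2962, score -1.07) and Cre-labelled library 2 (Irf4 2124, score -0.38). The part of lymphocytes in the Irf4 result was not tested. Of 12 lymphocyte and plasma cell markers tested, 2 were called higher and 0 lower with the Cre label at 30 °C. For temperature in controls, where Irf4 was lower at 30 °C, 6 were higher and 0 lower. The B cell marker Pax5 was at 0 in 5 of the 16 libraries. Skeletal muscle markers, of interest because these lineages are related, summed to 12359 to 21940 in the controls and 817 to 36600 in Cre-labelled libraries at 30 °C. None of the 20 muscle markers was called with the Cre label at 30 °C. With the muscle score as a covariate, Prdm16 was at -0.62 and no longer passed (limma adjusted p = 0.0522). For temperature in controls, the comparison in which Lhx8 and Irf4 were called, 8 of 20 muscle markers were higher at 30 °C and 0 lower (median log2 difference 3.98). Their sums were 1448 to 6248 at 22 °C and 12359 to 21940 at 30 °C in controls, without overlap. With the muscle score as a covariate, Lhx8 was at 1.67 and Irf4 at -2.25 in that comparison, and both were still called (limma adjusted p = 8.69e-04 and 0.0256). Endothelial markers were called higher for 4 of 12 with the Cre label at 30 °C, 5 at 22 °C, 7 for temperature in controls and 5 in Cre-labelled libraries, with 0 lower in each, and their part was not tested. Adipocyte progenitor markers, a setting where EBF2 acts, were called higher at 30 °C for 10 of 15 in controls and 9 of 15 in Cre-labelled libraries, and their part in the results was not tested.

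Relatives of the 9 genes in the same families (24 listed, 17 tested) were called mostly in the upward direction. Of all genes, 12.5% and 10.2% were called in either direction for the Cre label at 30 and 22 °C. For temperature 45.5% were called in controls and 32.7% in Cre-labelled libraries. With the Cre label at 30 °C 4 of 17 were called higher and 0 lower, with a median log2 difference of 0.34. Of these, Irf5 and Irf8, factors of macrophages and other myeloid cells, rose most: Irf8 measured 221 ± 36.7 against 105 ± 15.0 (SD, n = 4 each; log2 difference 1.06, limma adjusted p = 0.00413) and Irf5 149 ± 31.3 against 71.5 ± 12.4 (1.05, limma adjusted p = 0.00316). Irf1 (0.48) and Cebpg (0.34) were the other two. With the Cre label at 22 °C the 4 called of 17 were all higher: Irf7 (0.81), Zfp521 (0.73), Mecom (0.68) and Irf1 (0.43). ZFP521 is known as an antagonist of EBF factors, and Mecom encodes the closest PRDM relative of PRDM16. For temperature 9 were higher and 3 lower at 30 °C in controls, among them Ebf1, the paralog of Ebf2, at 1187 ± 276 against 572 ± 107 (SD, n = 4 each; log2 difference 1.04, limma adjusted p = 1.24e-04). Cre-labelled libraries gave 6 higher and 0 lower, led by Irf5 (1.90) and Irf8 (1.86). For the Cre label at 22 °C quantile normalization left 1 of the 17 called, and the same total gave 7, all higher. With temperature the same total gave 12 higher and 1 lower in controls and 10 higher and 0 lower in Cre-labelled libraries. The macrophage sums given above move with these Irf genes, and their part in the result was not tested.

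Among partners and cofactors of the 9 genes (30 listed, 27 tested) few were called with the Cre label. The counts were 3 of 27 at 30 °C and 1 of 27 at 22 °C, all lower, beside 12.5% and 10.2% of all genes. The median log2 differences of the list were -0.07 and -0.03. With the Cre label at 30 °C 3 fell and 0 rose: Thrb and Thra, which encode thyroid hormone receptors, and Esrra, which encodes the nuclear receptor ERRα. Esrra measured 1157 ± 285 against 1620 ± 129 (SD, n = 4 each; log2 difference -0.52, limma adjusted p = 0.0236), Thrb differed by -0.53 and Thra by -0.38. At 22 °C 1 of 27, Thra, was called (-0.45). At the same total 1 was lower at 30 °C and 0 were called at 22 °C, and quantile normalization gave 4 lower at 30 °C and 0 called at 22 °C. At 30 °C against 22 °C 8 fell and 1 rose in controls, and 8 fell and 1 rose in Cre-labelled libraries. Of all genes, 45.5% and 32.7% were called in these comparisons in either direction. The temperature directions also depend on the scaling: at the same total 9 were higher and 2 lower in controls, and 6 higher and 6 lower in Cre-labelled libraries. Quantile normalization gave 4 higher and 5 lower, and 3 higher and 7 lower. On the deposited scale Esrra differed by -0.86 and -1.04 in these, and Ctbp1, which encodes a corepressor that PRDM16 binds, by -0.43 and -0.52. Zbtb7b, a zinc-finger gene that promotes thermogenic fat, differed by -0.62 and -0.59. Plac8, which acts upstream of Cebpb, was called higher in controls (2.36) at low levels, 20.8 ± 6.42 against 4.04 ± 3.40 normalised counts (SD, n = 4 each). The 2 temperature comparisons use different libraries, and the medians over the 27 were -0.05 and -0.22.

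Brown fat genes, such as those for heat production and fatty acid use (22 listed, 21 tested), were called only in the downward direction in the 4 comparisons of groups. With the Cre label at 30 °C 10 of 21 were called lower and 0 higher, with a median log2 difference of -0.61. Ucp1 measured 5329 ± 1554 against 16596 ± 2078 (SD, n = 4 each; log2 difference -1.68, limma adjusted p = 2.80e-04), and Pank1, which makes coenzyme A, differed by -1.45. At 22 °C 9 of 21 were lower and 0 higher (median -0.47), among them Acsl5 (-2.02), S100b (-1.53) and Elovl3 (-3.90). At 30 °C against 22 °C 16 of 21 were lower in controls (median -0.81) and 14 of 21 in Cre-labelled libraries (median -0.91), with 0 higher in both. At the same total the temperature counts were 10 lower and 2 higher in controls and 13 lower and 1 higher in Cre-labelled libraries. After quantile normalization they were 11 lower and 2 higher and 14 lower and 1 higher. Otop1 differed by -2.17 in controls and by -2.71 in Cre-labelled libraries. Acsl5 alone of the 21 passed the interaction (1.68, limma adjusted p = 0.00249), in a comparison that called 0.440% of all genes and 0 of the 9. In that list 11, 12, 5 and 7 of the 21 did not pass in the 4 comparisons. Scaling to the same total moved the share of higher calls over all genes from 45.2% to 55.6% for the Cre label at 30 °C, from 54.0% to 81.3% at 22 °C, from 50.2% to 85.1% for temperature in controls and from 45.9% to 79.7% in Cre-labelled libraries.

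White fat genes (18 listed, 14 tested) gave 3 higher and 1 lower with the Cre label at 30 °C and 4 higher and 1 lower at 22 °C. Nnat, which is imprinted, differed by 2.96 and 2.58, Mest, another imprinted gene linked to fat cell growth, by 2.87 and 3.81, and Dpt, an extracellular matrix gene, by 1.46 and 1.52. Slc7a10 was also called higher at 22 °C (2.49). The lower gene was Hoxc8 at both temperatures (-0.85 and -0.91). At 30 °C against 22 °C 7 rose and 3 fell in controls, and 7 rose and 2 fell in Cre-labelled libraries. Lep, the hormone leptin, differed by 2.40 and 2.34. The genes that fell included Hoxc8 (-0.95 and -0.89) and Slc7a10 (-1.39 and -2.41). General adipocyte genes gave 0 higher and 2 lower of 12 with the Cre label at 30 °C, Dgat2 (-0.67) and Pnpla2 (-0.60), and 0 higher and 1 lower at 22 °C. With temperature 9 of 12 were lower in controls and 8 of 12 in Cre-labelled libraries, including Agpat2 (-2.52 and -2.26) and Fasn (-3.23 and -2.66). After quantile normalization the general adipocyte counts became 2 higher and 0 lower for the Cre label at 30 °C, 1 higher and 0 lower at 22 °C, and 3 higher and 4 lower for temperature in controls. Cebpa, which acts on such genes, differed with temperature by 0.07 in controls and -0.17 in Cre-labelled libraries (limma adjusted p of 0.720 and 0.389). For temperature in controls Cebpa was 0.46 at the same total (limma adjusted p = 0.00309) and 0.49 after quantile normalization (limma adjusted p = 5.12e-04).

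The genes whose log2 values lay closest to those of Prdm16 over the 16 libraries, by root-mean-square difference after centring, were Flcn (0.21), Slc11a2 (0.23) and Lman1 (0.24), out of 3559 genes of similar spread. Flcn, the folliculin tumour suppressor, had group means of 2251 and 1901 at 22 °C and 1936 and 1269 at 30 °C, controls first. Closest to Lhx8, out of 1676 genes, were Car7 (0.29), Rbl1 (0.31) and Ddx60 (0.32). Car7, a carbonic anhydrase, had means of 68.9 and 130.1 at 22 °C and 188 and 180.5 at 30 °C. Irf4 had only 344 genes of similar spread, and the closest were much farther away: Twist2 (0.92), Fam83a (0.99) and Igfals (1.04). These are descriptions over libraries that share their groups, with no test.

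BCL6 binding sites had been called in the brown fat of Cre-negative mice at 30 °C, from 1 ChIP sample, as a list of 3022 peaks of 180 bases. The deposited score of a peak is the authors' own value, ran from 4.11 to 170.0 with a median of 5.18, and is used only to rank peaks. Among the 9 genes, 2 were the nearest gene of a peak, against 14.2% of genes kept. One was Zfp516, with a peak at chr18:82913366-82913546 (mm10) in intron 1 of 5, 1176 bases before the nearest annotated start. Its score of 5.36 was above 55.4% of the list. The other was Zic1, with a peak at chr9:91173911-91174091 in intergenic sequence, 191798 bases from the start, and a score of 4.29, above 13.5% of the list. Within 10 kb of a start 1 of the 9 genes had a peak, against 7.75% of genes kept, and within 100 kb 1, against 13.3%.

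**Figure D4:**
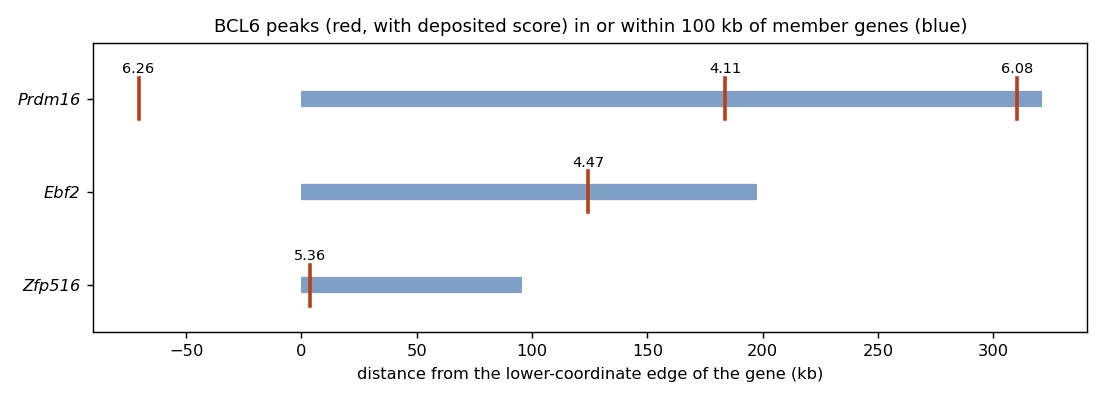
BCL6 peaks (red marks, with the deposited score above each) along Prdm16, Ebf2 and Zfp516 (blue bars), the members with a peak inside or within 100 kb, by distance from the gene's lower-coordinate edge in kb. Prdm16 held 2 peaks inside, with scores of 4.11 and 6.08, and 1 more 70.5 kb away, while Ebf2 and Zfp516 held 1 each.

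In the authors' table the peaks inside Prdm16 and Ebf2 were given to the start of another gene. The gene span of Prdm16 held 2 peaks. The first, at chr4:154626446-154626626, lay in intron 1 of 16 of one transcript, 10.8 kb from the upper edge of the minus-strand gene, the end where transcription of the gene begins. Its score of 6.08 was above 68.9% of the list, and the authors' table gave it to 5930403L14Rik, 9831 bases away. The second, at chr4:154499818-154499998 in intron 2 of 15, was given to Gm13133. Its score of 4.11 was the lowest of the list, a value shared with other peaks (tied from rank 2615 of 3022). Ebf2 held 1 peak, at chr14:67357636-67357816, with a score of 4.47, annotated to intron 3 of 5 of a noncoding transcript and given to 4930438E09Rik. So 3 of the 9 genes, with Zfp516, had a peak inside their span, against 10.3% of 13163 genes kept that had coordinates. Of genes of at least 100 kb, 2 of 4 members and 26.1% of 1719 genes had one, and 8.14% had 2 or more, as Prdm16 did. The closest peaks of the other six genes lay outside, from 172 kb (Ebf3) to 808 kb (Tbx15), with Irf4 at 336 kb and Cebpa at 196 kb. Of the 2 genes called for the Cre label at 30 °C, Prdm16 thus held peaks inside and Irf4 had none within 100 kb.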

How the data were processed

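RNA values are the authors' deposited normalised counts (a signal per gene and library), made with kallisto and DESeq2 on mm10 per the submitters' processing notes, which here name no versions. Libraries were stranded and polyA-selected per the labels' protocols. The values are not whole, so raw depth could not be recovered. Genes with a mean of at least 10 were kept (13176), and log2(value + 1) was fitted in limma 3.58.1 (R 4.3.3) with 1 mean per group over 16 libraries and an empirical Bayes trend (prior degrees of freedom 4.83, residual 12). Fold changes on this scale are understated for low genes. P-values were adjusted over all genes in each of 5 comparisons, threshold 0.05. The 36 exact permutation tests of single genes are two-sided and unadjusted.

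The peak list was annotated with HOMER on mm10 per the file header, after alignment with Bowtie2 per the submitters' processing notes. Each deposited score is the authors' value; the sources used here do not give its scale, the calling threshold or the control. Gene spans and promoters are RefSeq's, GRCm38.p6, the build named mm10. No genome was used, and the other ChIP samples were not analysed here. Transcript lengths were not used, so levels were not compared between genes.

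The members and gene lists were chosen with earlier results of these data known. All 9 members are named throughout. From each list up to 4 genes per comparison with the smallest adjusted p among those called could be named. Values of genes so named are also given for some other comparisons. The 3 genes most alike were taken among genes with 0.8 to 1.25 times the member's SD. The fit was tested on simulated data. Alternatives covered pseudocounts, filters, scaling, trend, covariates, a replicate block and libraries left out. Replicate numbers did not pair libraries: same-number deviations correlated between -0.48 and 0.24, so the fit has no block.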

Additional observations from a re-analysis of the deposited data

Results flagged for a closer look

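In 3 of 36 combinations of gene and group, 1 library lay far from the other 3, by a gap above Dixon's limit for 4 values. Chance gives about 1 in 20 such groups. Irf4 was at 2962 normalised counts in control 22 °C library 3, against 388 to 560 in the other libraries of that group. Zic1 was at 80.2 in control 30 °C library 4, against 55.6 to 56.7. Lhx8 was at 65.4 in Cre-labelled 22 °C library 3, against 43.0 to 46.0.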

How the results depend on the processing

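Of 1341 values of single members under the alternatives, 1298 stayed on the same side of the threshold. Another 21 were no longer past it, 21 newly passed it and 1 reversed, that is, newly passed with the opposite sign. The 1298 include values that changed sign but were called in neither fit. Ebf3 for the Cre label at 30 °C, for example, was at 0.62 with the macrophage covariate against -0.07 as reported. The reversal was Cebpa for temperature in Cre-labelled libraries, at 0.26 after quantile normalization against -0.17 as reported; the cause was not tested. For the Cre label at 30 °C the number of members called, 2, was 1 with libraries scaled to the same total, 1 with robust moderation, 1 with the muscle covariate, 0 with the macrophage covariate and 0 without Cre-labelled libraries 1 and 3. With 1 library left out it ran from 0 to 2. For the Cre label at 22 °C the number, 0, was 1 at the same total, 1 after quantile normalization, 1 without the sparsest pair of libraries and 0 to 2 with 1 library left out, reaching 2 (Lhx8 and Cebpa) without control 22 °C library 1. For temperature in controls the number, 2, was 5 at the same total, 4 after quantile normalization, 0 with the macrophage covariate and 2 to 3 with 1 library left out. For temperature in Cre-labelled libraries the number, 0, was 1 at the same total, 1 after quantile normalization, 2 in a fit of those groups alone, 2 without the sparsest pair and 0 to 1 with 1 library left out. The replicate block gave 1 member for the Cre label at 30 °C (Irf4; Prdm16 had a limma adjusted p of 0.0510) and changed no other count. Of 16 libraries, 4 correlated best with a library of their own number. Of members with a nearest peak, 2, there was 1 among peaks with a score at or above the median, 1 within 10 kb and 1 within 100 kb, and 3 had any peak in the gene or within 100 kb. Scaling to the same total moved the median of all genes by 0.07 and 0.17 for the Cre label at 30 and 22 °C, 0.39 and 0.29 for temperature in controls and Cre-labelled libraries and -0.11 for the interaction, whose share of higher calls went from 39.7% to 16.3%. With 4 libraries a group and depth in reads unknown, the intervals given for members that were not called are what limits those statements.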
